A study of Mus musculus with 8 samples.

Results

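The mitochondrial respiratory chain and ATP synthase are built from protein subunits encoded in 2 genomes, the nuclear and the mitochondrial. Of the 99 protein-coding gene entries in GENCODE M21 with symbols used for subunits of complexes I to V, 86 are nuclear and 13 mitochondrial. The entries were chosen by the start of the symbol, not from a list of proven subunits, and hold Atp5o more than once. Only 3 of them, Ndufa10, Ndufb3 and Cox5b, lie in the gene rows analysed here, all nuclear and all on chromosome 1, where 6 of the nuclear genes lie. The 13 mitochondrial genes and every gene of complexes II, III and V were not analysed here, so the transcripts of the nuclear and the mitochondrial genome cannot be set against each other. The results below describe these 3 genes and not the respiratory chain as a whole. None of the 3 passed the test between the genotypes. On counts of both strands together, with the main scaling, their 95% intervals together reached from -8.58% to 4.96% in the knockout relative to the control. Other scalings and single-strand counts, given below, moved the estimates.

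The cells were labelled as hepatic stellate cells, which store vitamin A in the healthy liver and become matrix-producing myofibroblasts after injury. They came from male mice with steatohepatitis (MASH), were isolated by enzymatic digestion and a density gradient, and were profiled by poly(A) RNA sequencing. All mice received a Western diet (21% fat, 20% protein, 50% carbohydrate) from 4 weeks of age for 20 weeks and were analysed in week 24. The groups were AREL1fl/fl, with the floxed gene and called fl/fl below, and AREL1HSC-KO, labelled as lacking the gene in stellate cells and called KO, with 4 libraries each. The genotype labels of KO replicates 2, 3 and 4 name AREL2, AREL3 and AREL4 where their titles name AREL1, and the titles were followed. AREL1 is an E3 ubiquitin ligase that acts on antagonists of inhibitor-of-apoptosis proteins. The Cre driver, whether the floxed controls carried Cre, and whether each library came from its own mouse are not given in the sources used here, so the p-values below rest on the variation from library to library, which may be technical.

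Gene-assigned reads numbered 17619387 to 19663030 in fl/fl libraries and 19271004 to 25165289 in KO libraries, and the shared rows held 3.20% to 3.28% of them. Arel1, the deleted gene, was not analysed here and gives no check of the labels. None of the 18 stellate cell markers listed is in the rows, so the labelled cell type was not checked either. Of 83 markers of stellate and other liver cells, 4 are in the rows. In reads per 1000000 gene-assigned reads (CPM), the portal fibroblast and mesothelium marker Cd34 stood at 79.4 to 86.2 in fl/fl and 83.4 to 87.3 in KO. The dendritic cell marker Batf3 reached 3.78 CPM, the hepatocyte marker Serpinc1 reached 0.662 CPM, and the cholangiocyte marker Pkhd1 had 1 read in all. Their part in the results was not tested. Unmapped reads made up 1.04% to 1.19% of a library in fl/fl and 1.44% to 1.58% in KO, and since the labels give no batch, library preparation and genotype cannot be told apart. Replicate 4 of the fl/fl libraries stood apart from the rest of its group, with a chi-square per degree of freedom of 3.37 to 3.47 in its pairs, against 1.39 to 1.86 in the other fl/fl pairs. On the first principal component it lay at -0.836, the other fl/fl libraries at -4.12 to -2.42 and the KO libraries at 2.39 to 2.73. Without it 191 genes were called in place of 158, and the log2 fold changes were -0.010 for Ndufa10, -0.0078 for Ndufb3 and 0.030 for Cox5b, none of them called.

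Complex I takes electrons from NADH and passes them to ubiquinone, and complex IV, cytochrome c oxidase, passes electrons from cytochrome c to oxygen. Both pump protons, and the gradient drives ATP synthesis by complex V. The catalytic cores of complexes I and IV include mitochondrially encoded subunits, around which nuclear-encoded accessory subunits such as these 3 are assembled.

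Ndufa10 (ENSMUSG00000026260) encodes an accessory subunit of complex I that is related to nucleoside kinases and sits on the matrix face of the membrane arm. Its level in CPM, scaled by TMM (a correction for library composition), was 148.8, 148.5, 147.9 and 143.9 in fl/fl replicates 1 to 4 and 147.9, 146.5, 145.4 and 150.8 in KO replicates 1 to 4. The lowest library was fl/fl replicate 4 and the highest KO replicate 4, and the groups overlapped. The fl/fl mean was 147.3 ± 2.27 CPM and the KO mean 147.6 ± 2.37 CPM (SD, n = 4), a log2 fold change of 0.0028 (SE 0.026, edgeR quasi-likelihood test, adjusted p = 0.94). The 95% interval of the difference ran from -3.49% to 4.02%. In bulk RNA, a change in the cells present and a change in RNA per cell cannot be told apart. Ndufa10 rested on 2515 to 3759 reads per library, for which counting alone gives a coefficient of variation of 1.63% to 1.99%. The observed values, 1.54% among fl/fl libraries and 1.60% among KO libraries, were no larger than that.

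Ndufb3 (ENSMUSG00000026032) encodes a small accessory subunit of the membrane arm of complex I. It stood at 40.7, 37.05, 43.65 and 43.67 CPM in fl/fl replicates 1 to 4 and at 40.62, 38.61, 41.27 and 40.99 CPM in KO replicates 1 to 4. The KO libraries all lay inside the range of the fl/fl libraries, whose lowest was replicate 2. The fl/fl mean was 41.3 ± 3.14 CPM and the KO mean 40.4 ± 1.21 CPM (SD, n = 4), with a log2 fold change of -0.033 (SE 0.047, edgeR adjusted p = 0.615). The 95% interval, -8.58% to 4.47%, was the widest of the 3 genes. With 650 to 993 reads per library, counting gives a coefficient of variation of 3.17% to 3.92%. The value was 7.61% among fl/fl libraries and 2.98% among KO libraries, so the spread among fl/fl libraries exceeded counting error.

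Cox5b (ENSMUSG00000061518) encodes a zinc-binding subunit on the matrix side of complex IV. Its level was 103.2, 99.8, 101.1 and 109.0 CPM in fl/fl replicates 1 to 4 and 107.2, 101.3, 103.8 and 102.2 CPM in KO replicates 1 to 4. All KO values again lay within the fl/fl range, which fl/fl replicate 4 topped. The fl/fl mean was 103.3 ± 4.09 CPM and the KO mean 103.6 ± 2.59 CPM (SD, n = 4), with a log2 fold change of 0.0052 (SE 0.032, edgeR adjusted p = 0.911). The 95% interval ran from -4.04% to 4.96%. Cox5b rested on 1748 to 2620 reads per library, with a coefficient of variation of 3.96% among fl/fl and 2.50% among KO libraries, against 1.95% to 2.39% from counting.

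**Figure D1:**
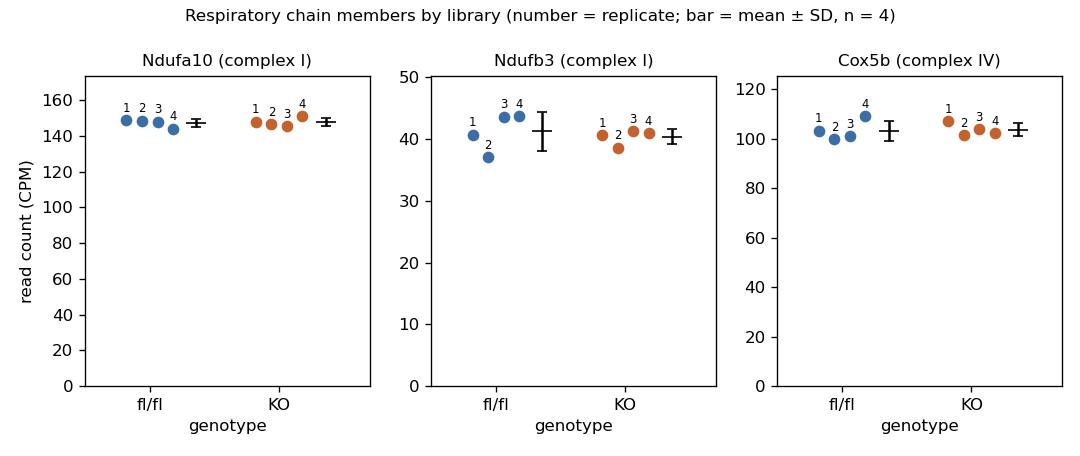
Read counts in CPM (vertical axes, from 0) of Ndufa10, Ndufb3 and Cox5b in each fl/fl and KO library, numbered by replicate, with the mean and SD of the 4 libraries as a black bar. The groups overlap in all 3 genes, and the spread of Ndufb3 in fl/fl, from 37.05 to 43.67 CPM, is the widest relative to its mean.

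The libraries did not keep 1 order across the genes. Among fl/fl libraries, replicate 4 was highest in Cox5b, level with replicate 3 at the top in Ndufb3, and lowest in Ndufa10, while replicate 2 was lowest in Cox5b and Ndufb3. Replicate 2 was also the lowest KO library in Cox5b and Ndufb3.

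Across all rows, 158 of the 420 genes tested changed (37.6%), 77 higher and 81 lower in KO, with 189 at an unadjusted p under 0.05. With edgeR on counts of both strands together 0 of the 3 respiratory chain genes changed, 0 had an unadjusted p under 0.05, and DESeq2 also called 0. On forward-strand counts 1 of the 3, Ndufb3, had an unadjusted edgeR p under 0.05 and was not called. The groups did not overlap in 132 of the 420 genes (31.4%) and in 0 of the 3. Among the 178 genes at least as abundant as Ndufb3, 47.8% were called. A count of 3 genes is too small to be set apart from these shares. Ordered by the size of the log2 fold change from the smallest, Ndufa10, Cox5b and Ndufb3 held places 6, 10 and 73 of 420. The median absolute log2 fold change was 0.0052 over the 3 genes, 0.12 over all 420 and 0.074 over the 178. These places and medians hold for TMM scaling only. Scaled by the upper quartile, Cox5b, Ndufa10 and Ndufb3 stood at 0.056, 0.054 and 0.018 (log2), and the median of all 420 genes at 0.055. On library totals alone they stood at 0.037, 0.035 and -0.00093, and that median at 0.036. Library sizes from the row sums kept Cox5b at 0.0019 and Ndufa10 at -0.00053, and RLE scaling at 0.0046 and 0.0022.

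**Figure D2:**
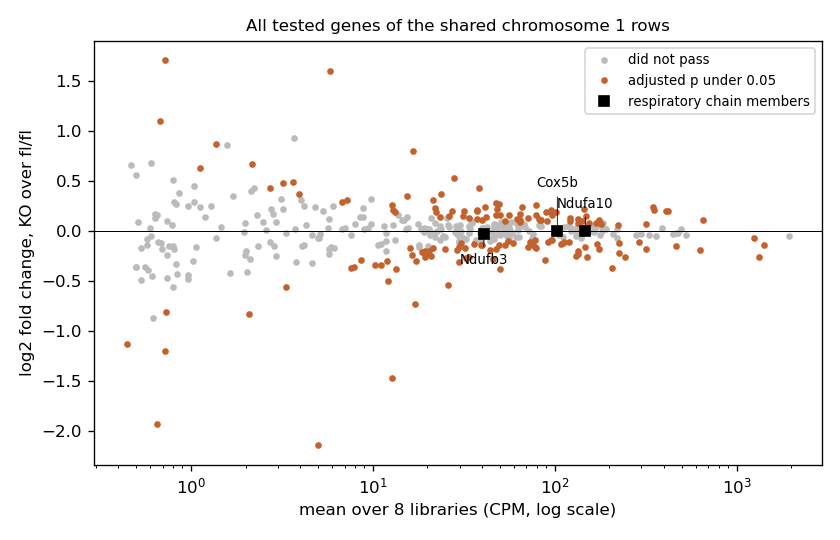
Log2 fold change of KO over fl/fl (vertical axis) against the mean level in CPM over the 8 libraries (horizontal axis, log scale) for the 420 genes tested, with called genes in orange and the 3 respiratory chain genes as black squares. With the main scaling the squares lie close to 0, at 0.0028 for Ndufa10, 0.0052 for Cox5b and -0.033 for Ndufb3. They lie among genes of like abundance that were called in both directions.

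Levels of different genes were compared per kilobase of transcript. On the length of the principal transcript (865 bases for Cox5b, 2020 for Ndufa10 and 763 for Ndufb3), Cox5b stood at 119.4 ± 4.73 CPM per kilobase in fl/fl, Ndufa10 at 72.9 ± 1.13 and Ndufb3 at 54.1 ± 4.12 (SD, n = 4). The lowest Cox5b library, at 115.4, lay above the highest Ndufa10 library, at 74.7, and the lowest Ndufa10 library, at 71.3, above the highest Ndufb3 library, at 57.2. On the length of all annotated exons (1587, 3331 and 763 bases), Cox5b was still highest, at 65.1 ± 2.58 CPM per kilobase in fl/fl, but Ndufb3 then lay above Ndufa10, which stood at 44.2 ± 0.682. The order of the 2 complex I genes therefore depends on the length used.

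Near-identical copies can take reads from a gene or make them ambiguous. Among GENCODE M21 transcripts, Cox5b matched Gm11273, annotated as protein-coding on chromosome 13, over 390 bases at 99.2% identity. Ndufb3 matched the processed pseudogene Gm45930 on chromosome 12 over 282 bases at 96.8% identity, and Ndufa10 matched no other gene over at least 100 bases at 95%. Neither copy was analysed here, so the levels of Cox5b and Ndufb3 are uncertain to the extent that reads were shared with them. No gene shares exons with any of the 3 in GENCODE M21.

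The kit is named as stranded, but reads of these genes fell on both strands about equally. Forward-strand reads made up 51.4% to 53.0% of the reads of Cox5b in fl/fl and 49.0% to 52.5% in KO, and 50.3% to 54.2% and 50.7% to 52.5% of those of Ndufa10. For Ndufb3 the fl/fl replicates 1 to 4 stood at 55.4%, 58.0%, 53.4% and 48.2%, and the KO libraries at 49.3% to 51.2%. The fl/fl libraries of Ndufb3 thus spread over more points than its KO libraries, where counting gives an SD of 1.59 to 1.96 points per library. Counted on the forward strand alone, Ndufb3 had a log2 fold change of -0.13 (edgeR adjusted p = 0.0778), and on the reverse strand alone 0.058 (adjusted p = 0.507). Over all alternatives its adjusted p lay between 0.0778 and 0.989. Counts of either strand together are the ones reported above.

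Other genes that serve the respiratory chain were taken from 10 lists of 241 genes, of which 13 are in the rows. Of the 12 tested, 3 rose, by 7.32% to 11.2%, and 0 fell. Of all genes tested 37.6% were called, 18.3% higher and 19.3% lower. A count of 12 genes is too small to be set apart from these shares. The median log2 fold change of the 12 was 0.033, against 0.0034 over all genes tested. The gene left out of the test was Esrrg, a nuclear receptor of the biogenesis list. It had 0 reads in each of the 8 libraries, which allows up to 0.119 CPM in the largest and 0.17 CPM in the smallest (3 reads, counting error only).

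The 3 that rose act in mitochondrial translation and RNA handling. Iars2, the mitochondrial isoleucyl-tRNA synthetase, stood at 136.5, 138.0, 131.4 and 138.6 CPM in fl/fl replicates 1 to 4 and at 147.5, 150.4, 143.4 and 142.7 CPM in KO replicates 1 to 4. The groups did not overlap, and the rise was 7.32% (log2 fold change 0.10, SE 0.028, edgeR adjusted p = 0.0051). Iars2 shares exons with Rab3gap2 and 2010103J01Rik on the opposite strand, so its count is uncertain without strand. The call of Iars2 was lost on forward-strand counts (log2 fold change 0.058, edgeR adjusted p = 0.25) and kept on reverse-strand counts (0.14, adjusted p = 0.0015). Over all alternatives the adjusted p lay between 7.81e-05 and 0.25.

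Mars2, the mitochondrial methionyl-tRNA synthetase, stood at 22.54, 25.42, 26.02 and 25.7 CPM in fl/fl replicates 1 to 4 and at 27.36, 28.13, 27.38 and 27.65 CPM in KO replicates 1 to 4. Every KO library lay above every fl/fl library, with fl/fl replicate 1 the lowest, and the rise was 11.2% (log2 fold change 0.15, SE 0.052, edgeR adjusted p = 0.0212). Its call was lost on forward-strand counts (log2 fold change 0.096, adjusted p = 0.338) and with DESeq2 (0.15, adjusted p = 0.0608). It was also lost without fl/fl replicate 1 (0.10, edgeR adjusted p = 0.135) and when KO replicate 2 was left out (0.14, adjusted p = 0.066). Over all alternatives its adjusted p lay between 0.0026 and 0.338.

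Angel2, an RNA end-processing phosphatase, stood at 56.86, 60.47, 58.68 and 61.93 CPM in fl/fl replicates 1 to 4 and at 63.32, 63.54, 67.97 and 64.54 CPM in KO replicates 1 to 4. The groups did not overlap, and the rise was 8.96% (log2 fold change 0.12, SE 0.037, edgeR adjusted p = 0.0093). Its call was lost, at log2 fold changes of 0.098 to 0.12, on forward-strand (adjusted p = 0.0574) and reverse-strand counts (0.0561), without fl/fl replicate 1 (0.0561) and when KO replicate 3 was left out (0.0573). Over all alternatives its adjusted p lay between 0.0003 and 0.0574.

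The other 9 did not pass the test, and 8 of them are described here. Of the assembly factors, Tmem70, for complexes I and V, averaged 56.5 ± 1.73 CPM among fl/fl libraries and 56.9 ± 2.38 CPM among KO libraries (SD, n = 4), and Sdhaf4, for complex II, at 6.23 ± 0.613 and 5.56 ± 0.385 CPM. Cox20, a chaperone of a mitochondrially encoded complex IV subunit, lay below 1 CPM in every library, with 7 to 21 reads per library. On counts of both strands together the log2 fold change of Cox20 was -0.39 (SE 0.34, edgeR adjusted p = 0.392). On counts of a single strand Cox20 was called lower (log2 fold change -0.21 on the forward and -0.19 on the reverse strand, edgeR adjusted p = 0.0083 and 0.0056, and from 0.0056 to 0.647 over all alternatives). Cox20 shares exons with Hnrnpu on the opposite strand, and reads fell on both strands about equally. Counts of a single strand can therefore include reads of Hnrnpu, and these calls cannot be assigned to Cox20. In coenzyme Q biology, the log2 fold change was 0.012 (SE 0.038) for Coq10b and 0.17 (SE 0.15) for Coq8a. The value for Coq8a ran from 0.052 without fl/fl replicate 1 to 0.26 without fl/fl replicate 3, and was -0.15 on reverse-strand counts.

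Among factors for mitochondrial gene expression, the transcription factor gene Tfb2m averaged 28.7 ± 0.893 CPM among fl/fl libraries and 29.3 ± 0.211 CPM among KO libraries (SD, n = 4). Mterf4, which acts in mitochondrial ribosome assembly, stood at 14.7 ± 0.779 and 16.2 ± 0.744 CPM (edgeR adjusted p = 0.0927) and was called higher with upper-quartile scaling (0.021) and library totals alone (0.0348), scalings under which the median over all 420 genes was 0.055 and 0.036 (log2). On reverse-strand counts its direction turned (log2 fold change -0.15, edgeR adjusted p = 0.155). Over all alternatives its adjusted p lay between 0.021 and 0.486. Mpc2, a subunit of the carrier that brings pyruvate into mitochondria, stood at 30.7 ± 1.07 and 28.7 ± 1.01 CPM (edgeR adjusted p = 0.11). In GENCODE M21, Sdhaf4, Cox20, Coq10b, Coq8a and Mterf4 share exons with genes on the opposite strand. The gene is Hnrnpu for Cox20, Cdc42bpa for Coq8a and Sned1 for Mterf4. Reads in such exons can be left out of the counts of both strands together as ambiguous. Since reads fell on both strands about equally, single-strand counts can include reads of the opposite gene. Their levels are uncertain under either count, and the turned signs of Coq8a and Mterf4 on reverse-strand counts share this limit. The lists for electron carriers and for mitochondrial protein import have no gene in the rows.

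**Figure D3:**
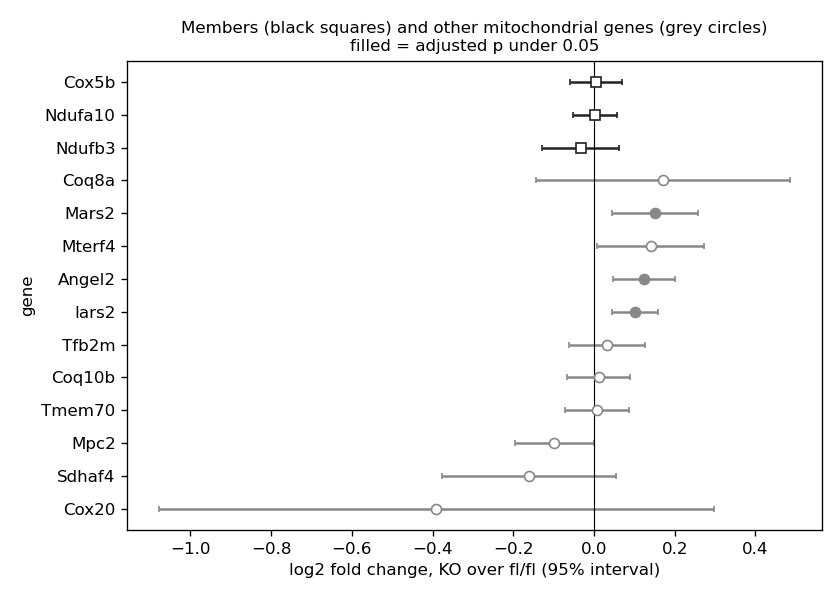
Log2 fold change of KO over fl/fl with its 95% interval (horizontal axis) for the 3 respiratory chain genes (black squares) and 11 of the 12 other mitochondrial genes tested (grey circles), with filled symbols for adjusted p under 0.05. The intervals of Ndufa10, Ndufb3 and Cox5b all span 0, and the filled circles are Mars2, Angel2 and Iars2, at 0.15, 0.12 and 0.10. The intervals are not adjusted for the number of genes tested. Those of Mterf4 (0.0074 to 0.273) and Mpc2 (-0.195 to -0.00049) exclude 0, but their symbols are open.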

How the data were processed

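Each deposited table gives one library's raw read counts by gene, as STAR writes them, for both strands together, the forward strand and the reverse strand, under 4 summary lines. GRCm38 and GRCm39 are both listed as builds in the submitters' processing notes, so no coordinates are given; the tools listed are STAR 2.7.10a, fastp and DESeq2 1.38.0. The tables as used here hold 1933 to 1943 complete gene rows, of which 1933 are shared, 1830 named through GENCODE M21 and all of those on chromosome 1. Library totals were derived as a lower limit from the summary values (the upper limit lay 2.51% to 2.65% higher). Counts of both strands together went into edgeR 4.0.16 under R 4.3.3 (filterByExpr, TMM, robust quasi-likelihood F test, Benjamini-Hochberg over 420 genes, threshold 0.05). The test was checked on simulated data, and recovery was required there only for changes of 1.5-fold or more. DESeq2 1.42.0, other scalings, no filter, single strands, adjusted p under 0.01, left-out libraries and a replicate block were alternatives. Every respiratory chain gene in the rows was named, as was each listed gene but 1, which is not reported here. Members and lists were chosen with earlier results of these data known. The share called among genes at least as abundant as Ndufb3 was added after values were seen. No 2 libraries of a group agreed within sampling noise (chi-square test of counts, largest p = 3.68e-07).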

Additional observations from a re-analysis of the deposited data

Results flagged for a closer look

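Dixon's criterion for an extreme value among 4 libraries (95% level) was applied to the values of each group. It picked 4 of 42 groups, where chance gives about 1 in 20, or 2.1, and none concerned Ndufa10, Ndufb3 or Cox5b. Cox20 stood at 0.818 CPM in KO replicate 2 against 0.34 to 0.41 in the other KO libraries. Mterf4 stood at 15.9 CPM in fl/fl replicate 3 against 14.19 to 14.46, and Cd34 at 86.2 CPM in fl/fl replicate 1 against 79.4 to 80.5. The library total was 19663030 reads in fl/fl replicate 1 against 17619387 to 17642249.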

How the results depend on the processing

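None of the 3 respiratory chain genes was called under any of the 18 alternatives. With the main scaling their values lie so near 0 that signs turned under some alternatives. On forward-strand counts the log2 fold change was -0.019 for Cox5b and -0.016 for Ndufa10. It was -0.00053 for Ndufa10 with library sizes from the row sums, and for Ndufb3 0.018 with upper-quartile scaling and 0.058 on reverse-strand counts. Leaving out 1 library gave -0.014 to 0.030 for Cox5b, -0.010 to 0.0081 for Ndufa10 and -0.079 to -0.0061 for Ndufb3. Signs also turned for Tmem70 (-0.014), Sdhaf4 (0.065), Coq8a (-0.15), Tfb2m (-0.013) and Mterf4 (-0.15), the first 2 on forward-strand and the rest on reverse-strand counts, and leaving out 1 library gave -0.015 to 0.024 for Tmem70 and -0.0035 to 0.024 for Coq10b. The 3 calls among listed genes became 1 on forward-strand counts, a lower Cox20. On reverse-strand counts they became a higher Iars2, a higher Mars2 and a lower Cox20, without Angel2. Single-strand counts rest on fewer reads for genes without shared exons. For Sdhaf4, Cox20, Coq10b, Coq8a, Mterf4 and Iars2 they can include reads of a gene on the opposite strand. With a library left out 1 to 3 listed genes were called, with 1 (Iars2) without fl/fl replicate 1. The cause was not tested. The 158 genes called stayed within 108 to 191. Upper-quartile scaling gave 120 higher and 52 lower (69.8% higher), and library totals alone 100 higher and 65 lower (60.6%), against 48.7%. With the replicate number as a block, 150 genes were called and 0 of the 3 respiratory chain genes. Deviations of same-numbered libraries correlated at -0.17 to 0.080, and 0 of 4 fl/fl libraries correlated best with their own number. No pairing by number was thus seen in the genes tested, which does not show that the libraries were unpaired. Leaving mitochondrially encoded genes out of the scaling was not run, since the rows hold none.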
